A study of Mus musculus with 8 samples.

Results

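The 10 genes described here belong to the aryl hydrocarbon receptor (AHR) and NRF2 pathways, and were taken by symbol from the 49315 gene identifiers counted in P9 brain endothelial cells (ECs). They are *Ahr*, *Ahrr*, *Arnt*, *Tiparp*, *Cyp1a1*, *Cyp1b1*, *Nfe2l2*, *Nqo1*, *Hmox1* and *Akr1b8*. All 10 were found and all 10 passed the filter on low counts. The list was chosen by pathway with the mutant and wild-type expression values of these same libraries in view. Differences between the groups in these 10 genes are therefore descriptions, given with the spread between pups and without a p-value. In mutant ECs, *Akr1b8* and *Cyp1a1* were higher by 69.3-fold and 51.3-fold in mean normalized counts, *Ahrr* by 7.52-fold, *Cyp1b1* by 3.84-fold and *Ahr* by 3.45-fold. *Arnt* and *Nfe2l2*, which code for the other transcription factors of the list, differed by 1.09-fold and 1.22-fold.

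Mutant pups carried 1 *R26* GT-Map2k1-GFP allele and the *Tg-Cdh5CreER* transgene, and the 4 controls are labelled wild type. The *R26* allele holds a *Map2k1* cDNA with the activating change K57N behind a CAG promoter and a removable stop cassette. Tamoxifen was injected into pups of both groups at P1, and ECs were captured from whole brains at P9 (postnatal day 9) with beads against CD31. The Cre is driven by the *Cdh5* promoter, and the stop cassette was removed in only a part of the ECs, so each mutant library mixes recombined and other ECs. Each of the 4 mutant and 4 wild-type libraries came from 1 pup, and the controls were taken from the same litters, on a background backcrossed to C57BL/6J. The labels do not say more of the controls' alleles, and where these lacked CreER and GFP, the presence of either cannot be told apart from that of the mutant kinase. In such bulk libraries a change in the number of cells of a type cannot be told apart from a change in RNA per cell.

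Reads counted on genes numbered 24833373 to 34196955 per library. *Map2k1* had 12660 to 18687 normalized counts in mutant and 1502 to 1758 in wild-type libraries. The 10 EC markers summed to between 10950 and 14132 TPM (counts per gene length, scaled to the same total in each library) in every library. Single markers of this list differed between the groups in both directions, as given below. Some libraries stood apart in markers of other cells. Neuron markers summed to 38.0 TPM in wild type 1 and 69.5 TPM in wild type 3, and to between 10.1 and 15.1 TPM in the other 6. Microglia and macrophage markers summed to between 730 and 873 TPM in mutant 3, mutant 4 and wild type 3, and to between 220 and 315 TPM in the other 5. The labels carry 3 prefixes of unstated meaning, each with libraries of both groups. One prefix covers replicates 1 and 2, another replicate 3 and the last replicate 4.

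AHR is a transcription factor that waits in the cytoplasm with chaperones until a small molecule binds it, then enters the nucleus and pairs with ARNT on DNA that holds the core GCGTG. Its best known targets are cytochrome P450 enzymes that oxidize the ligand, and the products of its targets *Ahrr* and *Tiparp* damp the receptor in turn. NRF2, the product of *Nfe2l2*, is destroyed through KEAP1 in resting cells. When oxidants or electrophiles block KEAP1, it pairs with small MAF proteins at antioxidant response elements and raises genes of glutathione, thioredoxin, NADPH and heme metabolism. *Nqo1* is a target of both factors, and brain ECs use both systems at the blood-brain barrier.

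Levels of different genes were compared per length, as TPM. *Hmox1* was the most abundant of the 10 in wild-type ECs, at 962 ± 560 TPM (SD, n = 4). *Tiparp* (228 ± 37.0 TPM, SD, n = 4) and *Nfe2l2* (194 ± 21.2 TPM, SD, n = 4) followed, and their ranges overlapped. *Arnt* stood at 45.1 ± 1.38 TPM and *Ahr* at 13.5 ± 1.95 TPM (SD, n = 4 each), without overlap. The remaining 5 genes were low. *Nqo1* had 4.67 ± 0.524 TPM, *Cyp1b1* 2.45 ± 0.824, *Akr1b8* 1.23 ± 0.341, *Cyp1a1* 1.09 ± 1.09 and *Ahrr* 0.344 ± 0.147 (SD, n = 4 each). In this lower part of the order only the gap between *Nqo1* and *Cyp1b1* exceeded the spread between pups, and each further pair of neighbours overlapped.

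The order differed in mutant ECs. *Hmox1* (2143 ± 1275 TPM), *Tiparp* (339 ± 40.1 TPM) and *Nfe2l2* (226 ± 28.8 TPM) remained the first 3 (SD, n = 4 each). *Akr1b8* came next with 81.3 ± 37.0 TPM, then *Cyp1a1* with 52.9 ± 41.2 TPM (SD, n = 4 each), and their ranges overlapped each other and those of *Arnt* (46.8 ± 6.67 TPM) and *Ahr* (44.2 ± 6.34 TPM). *Cyp1b1* had 9.02 ± 3.75 TPM and *Nqo1* 7.17 ± 4.84 TPM, with overlapping ranges. *Ahrr* remained the lowest, at 2.47 ± 1.90 TPM (SD, n = 4 each).

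**Figure D1:**
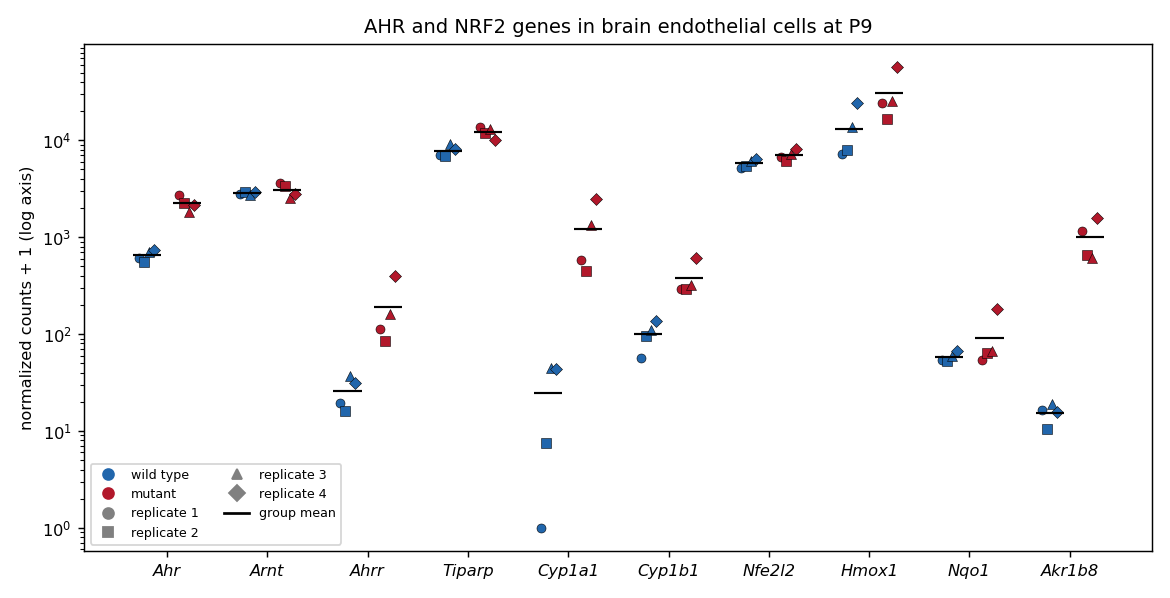
Normalized counts plus 1 of each gene (vertical log axis) in the 4 wild-type (blue) and 4 mutant (red) libraries, with symbols for the replicate number and a line at the group mean. *Akr1b8* and *Cyp1a1* show the widest gaps between the groups, and replicate 4 (diamonds) is the highest mutant library for 7 of the 10 genes.

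The comparison of mutant with wild-type libraries asks which transcripts differ when MAP2K1 with K57N is expressed in ECs. Normalized counts below are counts scaled to the mean library size, and log2 fold changes are those fitted by edgeR over all 16887 genes tested. Genes were called differentially expressed where the adjusted p was under 0.05 and the log2 fold change was over 1 in size. By this rule 6 of the 10 genes were called, all higher in mutant ECs, beside 5.90% of all genes tested that were called higher. The 6 are *Ahr*, *Ahrr*, *Cyp1a1*, *Cyp1b1*, *Hmox1* and *Akr1b8*. For 6 of the 10, every mutant library lay above every wild-type library, beside 20.6% of all genes tested. These are *Tiparp* and the 6 just named without *Hmox1*. Genes without overlap made up 42.5% of all genes tested, of which the lower ones were 21.9% of all. *Tiparp* and *Nfe2l2* passed the limit on the adjusted p alone, which makes 8 of 10 higher, beside 21.5% of all genes tested that were higher and 44.4% in either direction. With DESeq2 this count was 7. *Nfe2l2* lost this limit with upper quartile scaling, with genes averaging under 100 normalized counts left out, without mutant 3 or 4, without wild type 1 or 2, and without wild types 1 and 3 together. Within the 3 label prefixes (replicates 1 and 2, replicate 3, replicate 4), the mutant mean was also the higher one for each gene that follows. *Akr1b8* was higher by 73.0-fold, 33.7-fold and 107-fold, *Cyp1a1* by 156-fold, 30.1-fold and 57.1-fold, and *Ahrr* by 5.88-fold, 4.39-fold and 13.0-fold. The first value for *Cyp1a1* rests on wild-type counts of 0 and 7. The ratios were 3.90, 2.92 and 4.52 for *Cyp1b1*, 4.28, 2.60 and 2.94 for *Ahr* and 1.83, 1.42 and 1.23 for *Tiparp*. These counts of called and separated genes come from the values that were known when the list was made.

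*Ahr* (ENSMUSG00000019256) is a minus-strand gene of chromosome 12 (GRCm38, 35497974 to 35535038). Its normalized counts were 2731, 2239, 1835 and 2155 in mutants 1 to 4 and 605, 555, 706 and 733 in wild types 1 to 4. The lowest mutant library was well above the highest wild-type library, and the log2 fold change was 1.78 (standard error 0.13). With each library left out in turn it stayed between 1.70 and 1.88, the narrowest such range among the 6 genes called. *Arnt* (ENSMUSG00000015522), on chromosome 3 from 95434388 to 95497240, codes for the partner that AHR needs to bind DNA. It had 3617, 3365, 2542 and 2804 normalized counts in mutants 1 to 4 and 2764, 2947, 2703 and 2932 in wild types 1 to 4. The wild-type range lay inside the mutant range, and the log2 fold change was 0.12 (standard error 0.11). Per length, the *Ahr* level of 36.9 to 52.3 TPM in mutant libraries overlapped that of its partner (39.3 to 53.3 TPM), and in wild-type libraries it did not (11.3 to 15.3 against 43.2 to 46.3 TPM). A same-strand gene, *Gm42672*, overlaps *Arnt* and had 14 to 36 counts per library.

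*Ahrr* (ENSMUSG00000021575), on chromosome 13 from 74211118 to 74292331, codes for a repressor that competes with AHR for ARNT. It had 112, 83.8, 159 and 398 normalized counts in mutants 1 to 4 and 18.4, 15.0, 36.2 and 30.5 in wild types 1 to 4. All mutant libraries were higher, mutant 4 by the most, and the log2 fold change was 2.91 (standard error 0.51). *Tiparp* (ENSMUSG00000034640), on chromosome 3 from 65528410 to 65555518, codes for an ADP-ribosyltransferase that modifies AHR and represses it. It had 13692, 11818, 12927 and 10078 normalized counts in mutants 1 to 4 and 6989, 6934, 9079 and 8168 in wild types 1 to 4. The groups did not overlap, yet the gap was modest, the log2 fold change being 0.64 (standard error 0.12). *4931440P22Rik*, on the opposite strand, overlaps *Tiparp*, and whether counting used the strand is not stated. It had 271 to 424 counts per library, a small number beside those of *Tiparp*.

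*Cyp1a1* (ENSMUSG00000032315), on chromosome 9 from 57687928 to 57703824, codes for the P450 enzyme most often used as a readout of AHR. It had 576, 446, 1325 and 2462 normalized counts in mutants 1 to 4. In wild types 1 to 4 the raw counts were 0, 7, 51 and 41. The count of 0 in wild type 1, among 32062824 reads, allows up to 3 counts, or 2.76 normalized counts. The lowest mutant library thus stood at 446 normalized counts against 44.0 in the highest wild-type library. The log2 fold change was 5.69 with a standard error of 0.80, the widest of the 10, and it ranged from 5.09 without mutant 4 to 6.25 without wild type 3. *Cyp1b1* (ENSMUSG00000024087), on the minus strand of chromosome 17 from 79706953 to 79715041, codes for a related P450 enzyme. It had 293, 294, 317 and 609 normalized counts in mutants 1 to 4 and 56.0, 94.7, 109 and 135 in wild types 1 to 4. Mutants 1 to 3 were close together and mutant 4 stood above them, and the log2 fold change was 1.95 (standard error 0.31). Without mutant 4 it was 1.64.

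The promoter windows of *Cyp1a1*, *Cyp1b1*, *Ahrr* and *Akr1b8* are printed because these 4 genes had the largest fold changes of the 10. Each runs from 250 bases before to 50 bases after the RefSeq start site (GRCm38.p6), 5′ to 3′ on the strand of the gene. Capitals mark the AHR core GCGTG, or CACGC where it lies on the other strand.
Cyp1a1, chr9:57697363-57697662, plus strand: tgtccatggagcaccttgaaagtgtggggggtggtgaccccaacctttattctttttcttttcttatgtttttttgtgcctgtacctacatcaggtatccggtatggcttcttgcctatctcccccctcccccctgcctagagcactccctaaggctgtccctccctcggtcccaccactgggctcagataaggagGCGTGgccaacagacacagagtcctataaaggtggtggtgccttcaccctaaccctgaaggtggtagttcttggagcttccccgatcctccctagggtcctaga
Cyp1b1, chr17:79715012-79715311, minus strand: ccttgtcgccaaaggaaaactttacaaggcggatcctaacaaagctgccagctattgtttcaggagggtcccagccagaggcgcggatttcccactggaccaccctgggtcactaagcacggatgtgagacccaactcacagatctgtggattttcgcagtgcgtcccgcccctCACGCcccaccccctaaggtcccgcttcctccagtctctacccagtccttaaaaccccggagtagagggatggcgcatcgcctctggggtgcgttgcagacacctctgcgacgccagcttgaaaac
Ahrr, chr13:74292282-74292581, minus strand: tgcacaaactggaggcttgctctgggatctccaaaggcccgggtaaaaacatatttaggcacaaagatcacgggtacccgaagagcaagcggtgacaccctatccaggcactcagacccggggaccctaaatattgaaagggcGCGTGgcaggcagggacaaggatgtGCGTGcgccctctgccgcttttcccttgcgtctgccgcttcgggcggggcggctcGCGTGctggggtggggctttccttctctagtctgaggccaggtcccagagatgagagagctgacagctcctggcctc
Akr1b8, chr6:34353896-34354195, plus strand: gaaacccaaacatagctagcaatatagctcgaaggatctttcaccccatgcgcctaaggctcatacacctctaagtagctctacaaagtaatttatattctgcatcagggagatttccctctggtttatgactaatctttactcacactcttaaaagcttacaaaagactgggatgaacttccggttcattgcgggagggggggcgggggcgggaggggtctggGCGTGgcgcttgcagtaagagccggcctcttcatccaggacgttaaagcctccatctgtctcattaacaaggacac

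The window of *Ahrr* held GCGTG 3 times, beginning 107, 82 and 27 bases before the start, while 3.91% of 32851 mouse windows of the same length held it 3 times or more on either strand. *Cyp1a1* held it once, 54 bases before the start, *Cyp1b1* once at 76 on the other strand and *Akr1b8* once at 26. Windows for 8 of the 10 genes were in the table. GCGTG occurred in 6 of the 8, and in 32.4% of all windows. The antioxidant response element core TGACNNNGC occurred in the windows of *Arnt* and *Nfe2l2* and in 12.4% of all windows. The AP-1 motif TGANTCA, which can overlap it, occurred in 0 of the 8 and in 7.81% of all windows. These matches describe letters in short windows, and several known AHR targets were put on the list because they are known targets.

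*Nfe2l2* (ENSMUSG00000015839), on the minus strand of chromosome 2 from 75675513 to 75704641, codes for NRF2, which is controlled mainly at the protein level. It had 6758, 6066, 7212 and 8050 normalized counts in mutants 1 to 4 and 5209, 5448, 6104 and 6347 in wild types 1 to 4. The ranges overlapped, with mutant 2 below wild types 3 and 4, and the log2 fold change was 0.28 (standard error 0.10). *Nqo1* (ENSMUSG00000003849), on the minus strand of chromosome 8 from 107388225 to 107403206, codes for a quinone reductase induced by NRF2 and by AHR. It had 53.0, 62.9, 66.3 and 181 normalized counts in mutants 1 to 4 and 53.3, 51.6, 57.8 and 65.2 in wild types 1 to 4. Mutants 1 to 3 lay within or next to the wild-type range, and mutant 4 stood far above it. The log2 fold change of 0.69 (standard error 0.37) was 0.12 without mutant 4.

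*Hmox1* (ENSMUSG00000005413), on chromosome 8 from 75093621 to 75100589, codes for heme oxygenase 1, which opens the heme ring and frees iron. It had 23989, 16529, 25232 and 57048 normalized counts in mutants 1 to 4 and 7263, 7886, 13616 and 24110 in wild types 1 to 4. Wild type 4 was above mutants 1 and 2, so the groups overlapped. Within each label prefix, however, the mutant level was higher, by 2.67-fold for replicates 1 and 2, by 1.85-fold for replicate 3 and by 2.37-fold for replicate 4. The log2 fold change was 1.22 (standard error 0.44) and ranged from 0.75 without mutant 4 to 1.68 without wild type 4. *Hmox1* was called in 7 of 18 alternative fits, among them the fit blocked on the label prefix and the one without both replicate 4 libraries. It was not called with DESeq2 or with upper quartile scaling, nor without mutant 1, 3 or 4 or without wild type 1, 2 or 3, all of them fits without a block.

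*Hmox1* is also a gene of macrophages that clear red cells, so markers of macrophages, microglia and red cells are given beside it. The summed TPM of 12 microglia and macrophage markers was 220, 274, 873 and 730 in mutants 1 to 4 and 235, 315, 861 and 221 in wild types 1 to 4. Of the 12 marker genes, 0 had an adjusted p under 0.05, beside 44.4% of all genes tested (edgeR). The count was also 0 at an unadjusted p under 0.05 and with DESeq2 in place of edgeR. Standard errors of their log2 fold changes ran from 0.33 to 0.73, so this 0 does not show equal levels of these markers. The sums overlapped between the groups (log2 ratio 0.36, exact two-sided permutation test, p = 0.771, adjusted p = 0.771 over 8 lists). The median log2 fold change of the 12 genes was 0.62. The macrophage gene *Cd163* had 154 ± 116 normalized counts in mutant and 54.5 ± 48.1 in wild-type libraries (SD, n = 4 each). The log2 fold changes of the macrophage genes *Lyve1*, *Pf4* and *Mrc1* were 1.03, 0.85 and 0.53, and those of the microglia genes *P2ry12* and *Tmem119* were -0.98 and -0.40. The other markers of the list, *C1qb*, *C1qa*, *Aif1*, *Cd68*, *Cx3cr1* and *Csf1r*, had values of 0.88, 0.83, 0.70, 0.14, 0.02 and -0.11. None of the 12 genes passed the test. The 7 red blood cell markers found, which are hemoglobin, heme synthesis and red cell membrane genes, were all called lower in mutant libraries (edgeR). They summed to between 400 and 1316 TPM in mutant and between 2579 and 4308 TPM in wild-type libraries (log2 ratio -1.81, p = 0.0286 in the same exact test and adjusted p = 0.114). No comparison of 4 with 4 libraries can give a smaller p in that test. Mutant 4, the library with the most *Hmox1*, had the lowest red cell sum. The part of these cells in the *Hmox1* values was not tested.

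*Akr1b8* (ENSMUSG00000029762), on chromosome 6 from 34354119 to 34368463, codes for an aldo-keto reductase that detoxifies reactive aldehydes. It had 1163, 661, 610 and 1572 normalized counts in mutants 1 to 4 and 15.6, 9.38, 18.1 and 14.7 in wild types 1 to 4. The lowest mutant library stood at 610 against 18.1 in the highest wild-type library, and the log2 fold change was 6.10 (standard error 0.38), the largest of the 10. Leaving out each library kept it between 5.81 and 6.28. The neighbouring and similar gene *Akr1b10* had 147 to 160 normalized counts in mutant and 124 to 145 in wild-type libraries, its log2 fold change being 0.20 (standard error 0.13). *Akr1b7* had at most 9.47 normalized counts in any library. Reads shared between such similar genes could have been split in the counting.

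**Figure D2:**
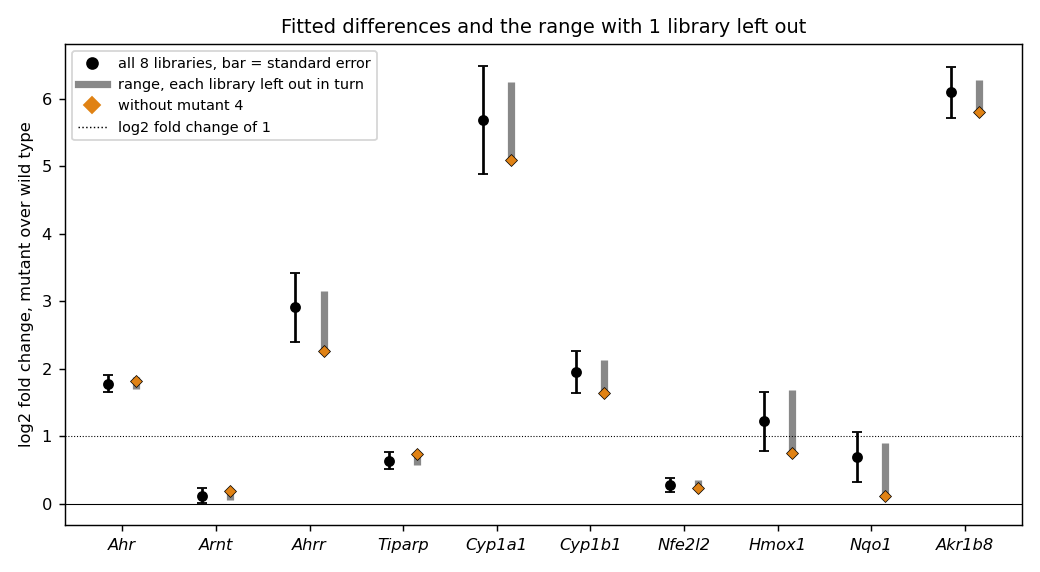
Fitted log2 fold change of each gene with its standard error (black), the range when each of the 8 libraries is left out in turn (grey) and the value without mutant 4 (orange). The ranges of *Ahr*, *Arnt*, *Tiparp* and *Nfe2l2* are short. *Ahrr*, *Cyp1a1*, *Cyp1b1*, *Hmox1*, *Nqo1* and *Akr1b8* are lowest without mutant 4, and so is *Nfe2l2* (0.23).

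*Cyp1b1* is also known from pericytes and other cells of the vessel wall, and their markers are given beside it. The 10 pericyte and smooth muscle markers summed to between 634 and 1268 TPM in mutant and between 688 and 1400 TPM in wild-type libraries (log2 ratio -0.25, exact two-sided permutation test, p = 0.371, adjusted p = 0.495). The 6 fibroblast markers summed to between 431 and 546 TPM and between 329 and 474 TPM (log2 ratio 0.28, same exact test, p = 0.114, adjusted p = 0.305). Of the 10 pericyte and smooth muscle markers, 3 were higher and 0 lower at an adjusted p under 0.05 (edgeR and DESeq2). Among all genes tested, 21.5% were higher and 22.9% lower (edgeR). At an unadjusted p under 0.05, again 3 of these markers were higher and 0 lower. The 3 were *Abcc9* (log2 fold change 1.78), *Kcnj8* (0.81) and *Tagln* (0.73), and the median of the list was 0.02. Of the 6 fibroblast markers, *Lum* (0.67) and *Col1a1* (0.39) were higher and *Pdgfra* (-1.03) was called lower (edgeR), with a median of 0.33. The sums of both lists overlapped between the groups. The part of these cells in the *Cyp1b1* values was not tested. Astrocyte markers summed to at most 26.0 TPM in any library (log2 ratio -0.32, same exact test, p = 0.514, adjusted p = 0.588). The log2 ratio of the summed neuron markers was -1.40 (same exact test, p = 0.257, adjusted p = 0.411) and that of the EC markers -0.14 (same exact test, p = 0.171, adjusted p = 0.343). Of the 10 EC markers, 3 were higher and 3 lower at an adjusted p under 0.05 (edgeR and DESeq2), beside 21.5% and 22.9% of all genes tested (edgeR). *Cdh5* (log2 fold change 1.11, called), *Emcn* (0.82) and *Pecam1* (0.53) were higher, and *Kdr* (-0.59), *Cldn5* (-0.47) and *Tek* (-0.44) were lower. The median of the EC list was 0.12. Oligodendrocyte markers were lower in mutant libraries, 17.2 to 39.2 TPM against 61.9 to 173 TPM (exact two-sided permutation test, p = 0.0286, adjusted p = 0.114). This p is the smallest that the test can give. All 6 oligodendrocyte markers were called lower (edgeR and DESeq2), with a median log2 fold change of -2.41. Of the 7 neuron markers tested, 4 were called lower and 0 higher (edgeR and DESeq2), with a median of -1.63. *Rbfox3* went the other way (log2 fold change 1.19, adjusted p = 0.0514, edgeR). *Neurod1* and *Cntn2*, both called lower, had 6.31 and 15.8 normalized counts in wild type 4, below the 28.7 and 38.2 in mutant 4. Among all genes tested, 8.05% were called lower (edgeR).

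**Figure D3:**
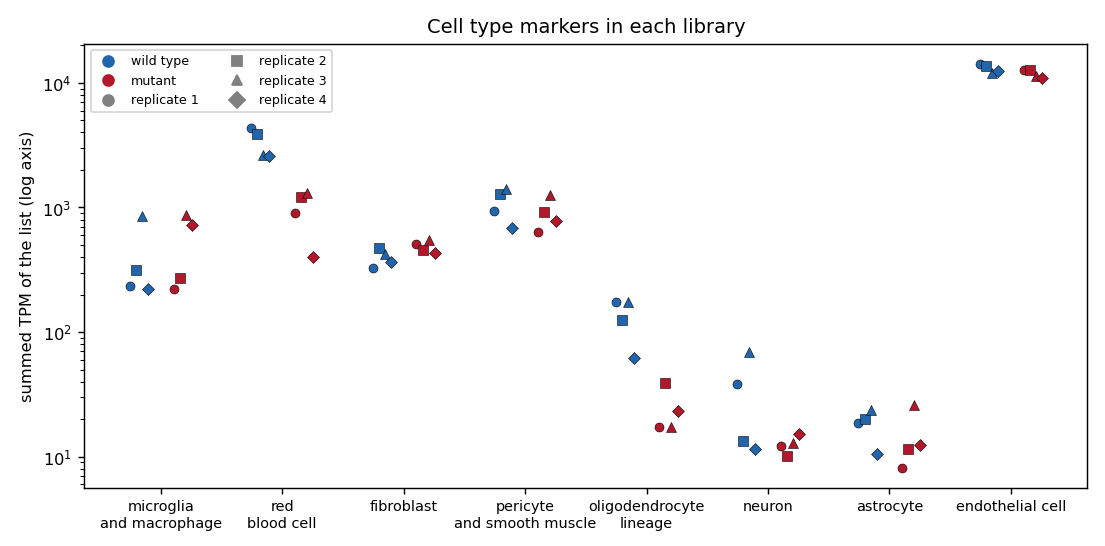
Summed TPM of 8 lists of cell type markers (vertical log axis) in the 4 wild-type (blue) and 4 mutant (red) libraries, with symbols for the replicate number. The red blood cell and oligodendrocyte sums are lower in all 4 mutant libraries, the macrophage sums split within both groups, and the EC sums lie between 10950 and 14132 TPM.

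Mutant 4 had the highest count of the 4 mutant libraries for 7 of the 10 genes, which are *Ahrr*, *Cyp1a1*, *Cyp1b1*, *Nfe2l2*, *Nqo1*, *Hmox1* and *Akr1b8*, beside 26.8% of all genes tested. This was looked for after the values were seen and compares libraries within 1 group. Against the mean of mutants 1 to 3, mutant 4 was 3.36-fold higher for *Ahrr*, 3.15-fold for *Cyp1a1*, 2.99-fold for *Nqo1*, 2.60-fold for *Hmox1*, 2.02-fold for *Cyp1b1* and 1.94-fold for *Akr1b8*. The ratio was 0.95 for *Ahr*, 0.883 for *Arnt* and 0.787 for the AHR target *Tiparp*, so the receptor, its partner and this target did not share this. Mutant 4 was the lowest mutant library for *Tiparp*. The median of the ratio was 1.98 over the 10 genes and 0.993 over all genes tested. Wild type 4, which shares a label prefix with mutant 4, was 2.56-fold above the mean of the other wild types for *Cyp1a1*, 2.51-fold for *Hmox1* and 1.56-fold for *Cyp1b1*, and 1.02-fold for *Akr1b8*. It was the highest wild-type library for 5 of the 10 genes, beside 30.7% of all genes tested, and for 4 of the 10 both replicate 4 libraries were the highest of their group, beside 11.1%. Mutant 4 was also the library with the most counts (34196955) and with the lowest red cell sum. The part of these in its values was not tested. Without mutant 4, 5 of the 10 genes were called, since *Hmox1* was not.

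**Figure D4:**
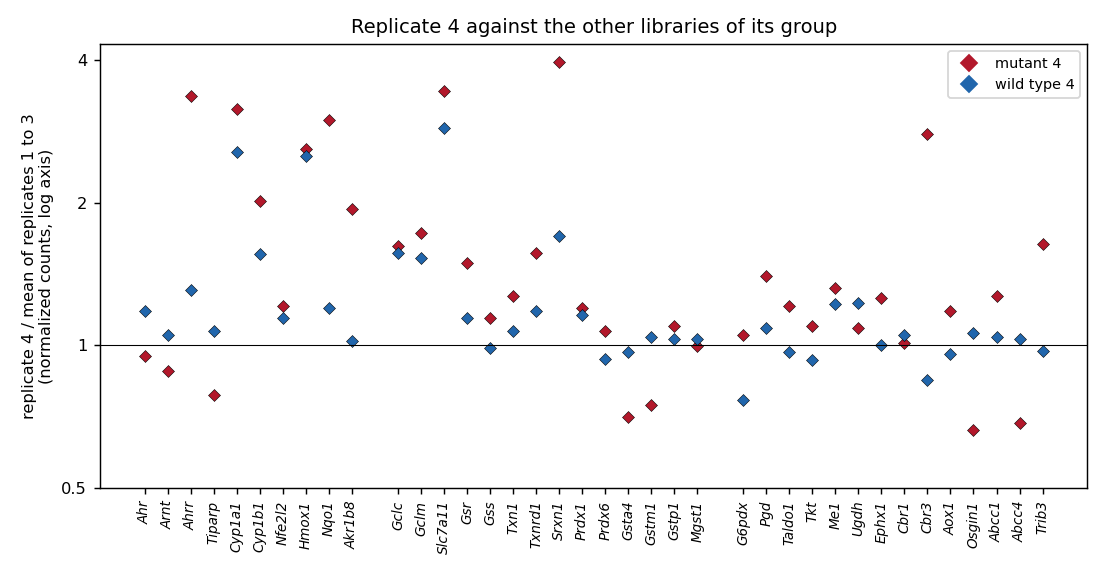
Ratio of replicate 4 to the mean of replicates 1 to 3 (vertical log axis, normalized counts) in mutant (red) and wild-type (blue) libraries for the 10 genes, for 14 tested NRF2 targets of glutathione and thioredoxin and for 14 of NADPH supply, detoxification and export. The ratio in mutant 4 is 3.96 for *Srxn1*, 3.44 for *Slc7a11* and 3.36 for *Ahrr*, and the ratio in wild type 4 is 2.88 for *Slc7a11*.

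To see how the rest of both pathways behaved, 9 further lists with 104 genes in all were read from the same fit, of which 81 passed the filter on low counts. Of these 81, 5 were called higher (6.17%) and 6 lower (7.41%), beside 5.90% and 8.05% of all genes tested. The lists as a whole therefore held about the background share of called genes. At an adjusted p under 0.05 without a fold limit, 23 were higher and 21 lower (28.4% and 25.9%), beside 21.5% and 22.9% of all genes tested. These lists, too, were chosen with earlier results of these data known, so their shares are descriptions.

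Of 13 other known AHR targets, 7 did not pass the filter on low counts, among them *Cyp1a2* and *Aldh3a1*, which are AHR targets of the liver and cornea. Of the 6 tested, 0 were called higher, by edgeR and by DESeq2, and 1 was higher at an unadjusted p under 0.05. One was called lower. Of all genes tested, 5.90% were called higher and 8.05% lower (edgeR). The gene called lower is *Slc7a5*, the large neutral amino acid transporter of the blood-brain barrier, which fell from 56426 ± 5293 to 27373 ± 7974 normalized counts (SD, n = 4 each), a fitted log2 difference of -1.04 (standard error 0.19, adjusted p = 0.00165, edgeR). It no longer passed the fold limit without mutant 4 (-0.84) or without wild type 1 (-0.98). *Abcg2*, an efflux pump of the barrier, was higher by 0.78 on the log2 scale (standard error 0.10, adjusted p = 0.000147, edgeR). The median log2 fold change of the 6 was 0.08, and that of all genes tested was -0.02. Of 8 enzymes that make or use tryptophan-derived ligands of AHR, 7 did not pass the filter, and the remaining *Kyat1* did not pass the test.

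Among 10 chaperones, partners and coactivators of AHR, 3 were higher and 4 lower at an adjusted p under 0.05, beside 21.5% and 22.9% of all genes tested, and 1 was called lower, beside 8.05%. *Arnt2*, a relative of *Arnt* best known from neurons, fell from 158 ± 62.3 to 49.9 ± 19.6 normalized counts (SD, n = 4 each), a fitted log2 difference of -1.66 (standard error 0.32, adjusted p = 0.00211, edgeR). *Arnt2* had 156, 123, 246 and 106 normalized counts in wild types 1 to 4, where the neuron markers summed to 38.0, 13.4, 69.5 and 11.6 TPM. Its log2 difference was -1.36 without wild type 3 and -1.18 without wild types 1 and 3, still called in both. The part of neurons in these values was not tested. *Hsp90aa1*, a chaperone of the inactive receptor, had a log2 difference of -0.47 (standard error 0.08, adjusted p = 0.00128, edgeR). ARNT also pairs with the hypoxia factors and other relatives of AHR, of which 6 were tested. At an adjusted p under 0.05, 2 of the 6 were higher and 2 lower (33.3% each), beside 21.5% and 22.9% of all genes tested. One of the 6 showed the largest rise outside the 10 genes in these lists. *Hif3a*, a member of that family that can inhibit the others, rose 22.6-fold, from 33.5 ± 14.2 to 756 ± 274 normalized counts (SD, n = 4 each), with a fitted log2 difference of 4.47 (standard error 0.35, adjusted p = 1.06e-05, edgeR). *Epas1*, the main hypoxia factor of ECs, was lower (-0.76, standard error 0.11, adjusted p = 0.000478, edgeR) and *Hif1a* higher (0.35, standard error 0.07, adjusted p = 0.00237, edgeR). *Npas4*, a gene of active neurons, was also called lower (-2.76, standard error 0.82, adjusted p = 0.0192, edgeR). It was not called without wild type 3 (-2.01) or without mutant 2 (-2.57), and its value was -1.14, again not called, without wild types 1 and 3, the libraries with the highest neuron marker sums. Without mutant 4 it was -4.14.

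Of 15 regulators, partners and relatives of NRF2, 0 were called by edgeR or by DESeq2. The shares called among all genes tested were 5.90% higher and 8.05% lower (edgeR). At an adjusted p under 0.05 alone, 1 of the 15 was higher and 3 were lower, beside 21.5% and 22.9% of all genes tested (edgeR). At an unadjusted p under 0.05, 2 were higher and 3 lower, beside 4193 and 4624 of all 16887 genes tested (edgeR). *Keap1*, the brake on NRF2, had a log2 difference of -0.18 (standard error 0.08, adjusted p = 0.111, edgeR). *Bach1*, a repressor that competes at NRF2 sites and is released by heme, had one of 0.01 (standard error 0.08, adjusted p = 0.917, edgeR).

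Of 28 NRF2 targets tested in both target lists, 15 were higher and 4 lower at an adjusted p under 0.05 (edgeR). These are 53.6% and 14.3%, beside 21.5% and 22.9% of all genes tested. With DESeq2, 18 of the 28 were higher and 4 lower, beside 3927 and 3818 of all 16887 genes tested. The median log2 fold change of the 28 targets was 0.50, against -0.02 over all genes tested (edgeR). Most of these differences were under 2-fold. Of the 28, 4 were called higher and 1 lower (14.3% and 3.57%), beside 5.90% and 8.05% of all genes tested. Both lists were made with earlier results of these data known, so these shares are descriptions. *Slc7a11*, the cystine importer that feeds glutathione synthesis, had 1420, 1358, 2113 and 5609 normalized counts in mutants 1 to 4 and 218, 261, 617 and 1052 in wild types 1 to 4. Its groups did not overlap, and it rose by 2.30 on the log2 scale (standard error 0.58, adjusted p = 0.00869, edgeR), or 1.63 without mutant 4. *Srxn1*, which repairs peroxiredoxins, had 1330, 939, 1775 and 5341 normalized counts in mutants 1 to 4 and 389, 380, 1062 and 1038 in wild types 1 to 4. It rose by 1.71 (standard error 0.55, adjusted p = 0.0276, edgeR), with mutant 2 inside the wild-type range, and it was not called without mutant 4 (0.93) or without either of wild types 1 and 2.

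*Abcc1*, an exporter of glutathione conjugates, rose from 491 ± 33.8 to 1620 ± 286 normalized counts (SD, n = 4 each), a fitted log2 difference of 1.72 (standard error 0.13, adjusted p = 6.9e-06, edgeR), and stayed between 1.65 and 1.83 with each library left out. *Trib3*, a stress pseudokinase, rose by 1.13 (standard error 0.24, adjusted p = 0.00375, edgeR), and by 0.93, below the fold limit, without mutant 4. Below the fold limit, *Prdx6* (0.95), *Me1* (0.99), *Txnrd1* (0.75), *Pgd* (0.73) and *Txn1* (0.71) were higher at adjusted p between 6.3e-06 and 0.00619 (edgeR). *Gclc* and *Gclm*, the subunits of the enzyme that limits glutathione synthesis, had log2 fold changes of 0.62 and 0.50 and adjusted p of 0.0503 and 0.0788 (edgeR). *Gsta4*, a glutathione transferase for lipid aldehydes, went the other way, from 3826 ± 526 to 1236 ± 432 normalized counts (SD, n = 4 each), a fitted log2 difference of -1.63 (standard error 0.22, adjusted p = 0.000243, edgeR). Mutant 4 was the highest mutant library for 20 of these 28 targets, or 71.4%, beside 26.8% of all genes tested.

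Of 8 other genes of heme synthesis, heme breakdown and iron handling, 1 was higher and 5 lower at an adjusted p under 0.05. These are 12.5% and 62.5%, beside 21.5% and 22.9% of all genes tested. Of the 8, 0 were called higher and 1 lower, beside 5.90% and 8.05%. *Slc40a1*, the iron exporter ferroportin, was called lower and fell from 18413 ± 1525 to 6102 ± 1326 normalized counts (SD, n = 4 each), a fitted log2 difference of -1.59 (standard error 0.15, adjusted p = 3.12e-05, edgeR). *Fth1* and *Ftl1*, the chains of the iron store ferritin, had log2 fold changes of -0.46 and 0.34 (adjusted p = 0.0012 and 0.0337, edgeR). Both have many processed pseudogenes that could share their reads. *Alas1* (-0.61) and *Blvrb* (-0.55), which make heme and reduce its breakdown product, were lower (adjusted p = 0.000439 and 0.00331, edgeR). The red cell markers, which include heme genes, were lower in the same libraries, as given above, and their part in these values was not tested.

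Among 7 tested aldo-keto reductases other than *Akr1b8*, 0 were called higher and 1 lower, by edgeR and by DESeq2, and 1 was higher at an unadjusted p under 0.05 (edgeR). The shares called among all genes tested were 5.90% higher and 8.05% lower (edgeR). *Akr1c14*, which acts on steroids, fell from 1500 ± 81.0 to 333 ± 53.7 normalized counts (SD, n = 4 each), a fitted log2 difference of -2.17 (standard error 0.11, adjusted p = 8.8e-07, edgeR). *Akr1c13* had a log2 difference of 1.02 (standard error 0.40) and did not pass the test (adjusted p = 0.0587, edgeR).

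**Figure D5:**
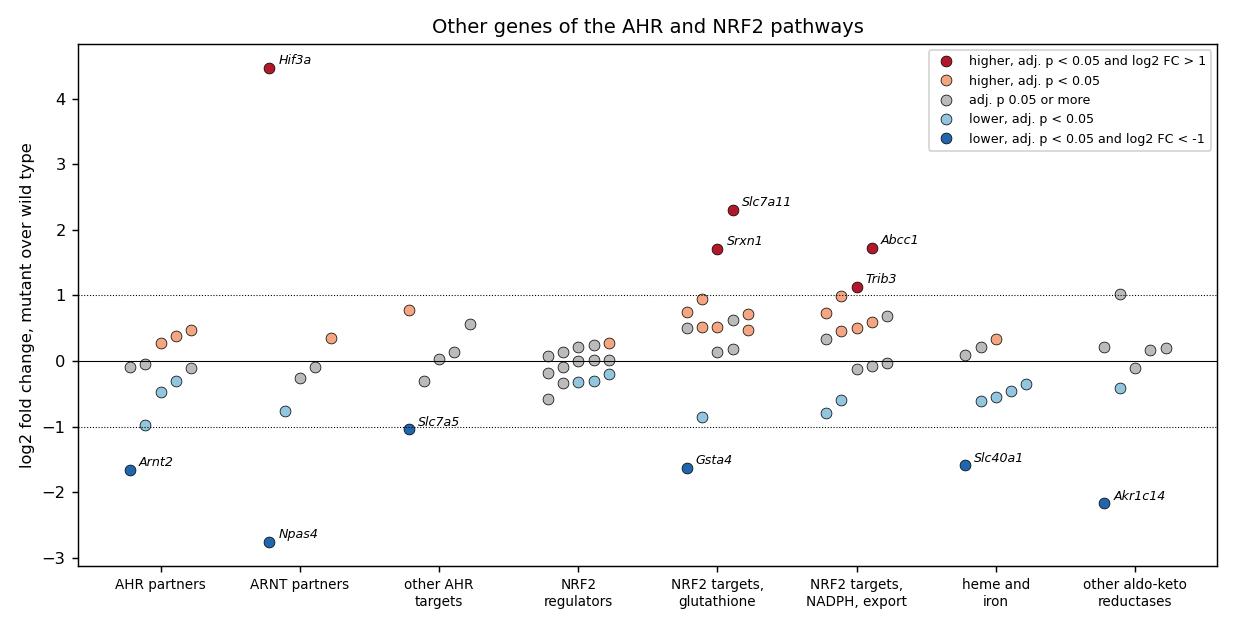
Fitted log2 fold change of the tested genes in 8 further lists of the AHR and NRF2 pathways, coloured by direction and by the limits passed, with the names of called genes and dotted lines at the fold limit. *Hif3a* is at 4.47, the NRF2 targets lie mostly above 0, and the heme and iron genes mostly below.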

How the data were processed

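ECs were isolated from whole P9 brains, and poly(A) RNA was sequenced as paired reads. The authors deposited raw read counts per gene, the values used here, made from reads trimmed by Trimmomatic and aligned by STAR to GRCm38. The counting program, the annotation and the use of strand are not given in the sources used here. A second deposited table, of the same counts divided by DESeq2 size factors, was not used. Symbols were matched to 48970 of the 49315 identifiers.

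Groups were taken from the labels. Genes that passed filterByExpr of edgeR 4.0.16 (16887, minimum count 10) were scaled by the trimmed mean of M-values (TMM) and tested between mutant and wild type with the quasi-likelihood test in R 4.3.3, without covariates, and p-values were adjusted over all genes by the Benjamini-Hochberg method. Normalized counts are counts over the effective library size times the mean library size. TPM used the gene lengths in the count tables. Marker sums were compared by exact two-sided permutation tests, adjusted over 8 lists. The edgeR test was checked before use on simulated counts. There, changes were placed in well-counted genes, and all genes had the same small spread. The check therefore does not cover changes in genes with few counts or a wide spread. Alternatives were DESeq2 1.42.0, other scalings and filters, a test against the fold limit (glmTreat), blocks for replicate number and label prefix, and each library left out. Leaving out replicate 4 of both groups, and wild types 1 and 3, was chosen after seeing the data.

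The 10 genes and all lists were chosen with earlier results of these data known. All 10 were named whatever their values, and of each pathway list up to 4 genes per direction past both limits, by fold change, where the higher group averaged 10 normalized counts or more. Further pathway and marker genes were named for their role after their values were seen. Depth was 24833373 to 34196955 counts per library, and limits for counts of 0 cover counting error only. Promoter windows came from RefSeq (GRCm38.p6), and 8 of the 10 genes matched.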

Additional observations from a re-analysis of the deposited data

Results flagged for a closer look

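Of 36 groups of 4 libraries examined for 1 library far from the others (Dixon's ratio of gap to range above its 95% critical value), 3 stood out, where chance gives about 1 in 20. *Cyp1b1* had 609 normalized counts in mutant 4, against 317 in the nearest mutant library (ratio 0.923). *Nqo1* had 181 normalized counts in mutant 4, against 66.3 in the nearest (ratio 0.897). The microglia and macrophage markers summed to 861 TPM in wild type 3, against 315 TPM in the nearest wild-type library (ratio 0.854). The causes were not tested.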

How the results depend on the processing

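The count of genes called higher (996) was 590 when genes averaging under 100 normalized counts were left out, 427 with glmTreat and 3631 with no fold limit. The count called lower (1360) was 604, 309 and 3873 under the same 3 settings, each of which changes the genes tested or the fold limit by construction. With each library left out, the counts ranged from 934 to 1152 and from 1178 to 1604. Of the pathway genes, 5 were called higher and 6 lower. With glmTreat these were 2 and 3, with no fold limit 23 and 21, and with each library left out 3 to 7 and 5 to 8. Without both replicate 4 libraries, 3 were called higher. The summed EC markers had a log2 ratio of -0.14 (mutant over wild type, TPM), which became 0.03 when normalized counts were summed without length, and the cause was not tested. Of the 10 genes, 5 or 6 were called higher and 0 lower (edgeR) with each library left out. With a replicate block 1032 genes were called higher and 1399 lower, and 6 of the 10 genes higher. The deviations of same-numbered libraries correlated at 0.2007, 0.21, 0.2903 and 0.0241 over genes for replicates 1 to 4. In the first prefix, mutant 1 with wild type 2 and mutant 2 with wild type 1 correlated at 0.1655 and 0.2526. Across prefixes the values ran from -0.3577 (mutant 1, wild type 3) to 0.3843 (mutant 4, wild type 3). The study's methods state that controls were matched to mutants within litters. The labels do not tie a replicate number or prefix to a litter, and these correlations do not settle the pairing. The main fit used no block. With a label prefix block the counts were 1050 and 1406, and *Hmox1* was called with either block. Of the other values computed, 611 were counted as unchanged and 31, all of single genes, fell below the limits. For single-gene fits and marker sums, unchanged means the same direction and side of the limits. For counts of called genes, ratios of mean levels and motif counts, it means a change within a set tolerance. With 4 pups a group, *Akr1b8*, *Cyp1a1* and *Ahrr* are low in wild-type ECs, and their ratios rest on few counts. *Cyp1b1* and *Nqo1* are low too, with 61 to 128 and 55 to 67 raw counts in wild-type libraries. The difference in *Nqo1* rests mainly on mutant 4 (log2 fold change 0.69, or 0.12 without it).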
